A study of Mus musculus with 8 samples.

Results

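A small set of cells with counts for Pax6 and Sfrp1 was described in the frontal isocortex of mice at postnatal day 7. A cell belonged to the set when it had a count for Pax6 and for at least 2 of the 4 genes Fgf15, Sfrp1, Veph1 and Naaa, and no count for Pdgfra, Top2a or Mki67. This rule found 78 cells among the 11494 cells of the libraries sorted for a Drd1a-tdTomato transgene, out of 22876 cells in the whole study. All of these values were used to choose the cells, so the levels of the 8 rule genes are given as a description and were not tested. The working name of the set was a radial progenitor marked by Fgf15 and Pax6. The data went against the first of these markers, since Fgf15 was counted in only 7 of the 78 cells, whereas Sfrp1 was counted in all 78. They are therefore called Pax6 Sfrp1 cells below.

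The study compared frontal isocortex between mice with and without a deletion of the transcription factor Foxp2 in cortical lineages. Every animal carried the Drd1a-tdTomato reporter, a bacterial artificial chromosome transgene that labels cells with activity of the dopamine D1 receptor promoter, and 2 floxed Foxp2 alleles (Foxp2 flox/flox), on a C57BL/6J background. Controls had no Cre, and conditional knockouts (cKO) also carried Emx1-Cre, which is active in the lineage of the pallial neuroepithelium. Red fluorescent cells were collected by flow cytometry and made into 10x Chromium 3′ libraries. There were 2 control and 2 cKO libraries, prepared on different days as control 1 with cKO 1 and control 2 with cKO 2. The cKO 2 library came from a male and the other 3 from females. Values by library are given throughout in the order control 1, control 2, cKO 1, cKO 2. With 2 libraries per genotype, p-values measure only the spread between few libraries.

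Radial glia are the stem cells of the developing forebrain and line the ventricle. In the cortex they express the paired-box transcription factor Pax6, and late in development they turn to making astrocytes, ependymal cells and the adult stem cells of the ventricular wall. The stem cells of the lateral wall also give rise to olfactory bulb interneurons through progenitors that express Dlx and Sp genes. Astrocytes share many genes with radial glia, among them Slc1a3, Fabp7, Sox2 and Sox9, so these genes alone do not separate the cell types.

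The libraries held 2395 to 3206 cells with median counts per cell of 7198 to 12815. Foxp2, the targeted gene, was at 36.3 and 39.1 CPM (counts of the gene scaled to 1e+06 counts of the library or cell set) over all cells of control 1 and control 2, and at 26.5 and 19.4 CPM in cKO 1 and cKO 2. A 3′ count need not fall in the deleted exons, so this order is no direct check of the deletion. Among the Pax6 Sfrp1 cells Foxp2 was counted in 9 of 78, at 0, 31.7, 40.2 and 42.6 CPM by library. The gene listed as Drd, taken here for the D1 receptor gene, was counted in 5 of the 78 cells (6.41%). So few of the sorted cells of this set showed the receptor's own transcript. Over all cells it was counted in 21.3, 35.9, 11.3 and 12.6% by library, so most sorted cells showed none. Between libraries 97 cell barcodes were shared, which touched 1 of the 78 cells.

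Sfrp1, a secreted modulator of Wnt signalling, was the marker that defined the set in practice. It reached 898, 88.6, 729.96 and 495 CPM in the Pax6 Sfrp1 cells. Control 2 stood far below the other libraries. Naaa, a lysosomal hydrolase of fatty acid amides, was counted in 58 cells, at 318, 12.7, 165 and 128 CPM in the same order. Veph1, a gene named for its expression in the ventricular zone, was counted in 39 cells, at 18.7, 50.7, 149 and 63.8 CPM. Naaa was thus lowest in control 2 and Veph1 lowest in control 1. Pax6 itself was at 281, 139, 517 and 383 CPM, the control values resting on 15 and 22 counts. Both cKO libraries lay above both controls, as for 20.5% of the 8396 genes counted in at least 10% of the cells. Since Pax6 chose the cells, this order is a description. Fgf15, a secreted growth factor of embryonic progenitors, was counted in 0, 1, 6 and 0 cells of the same libraries. Those 6 cells of cKO 1 held 62 Fgf15 counts, with up to 25 in 1 cell.

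The most frequent pair of markers was Sfrp1 with Naaa, in 34 cells, and Sfrp1 with Veph1 followed in 17. Another 20 cells had Sfrp1, Veph1 and Naaa together, and 1 cell had all 4 markers. The cells just inside the threshold, with exactly 2 markers, numbered 53 and had 300.4 CPM of Pax6 and 424 CPM of Sfrp1. The 25 cells with 3 or 4 markers had 559 and 792 CPM of these genes. Just outside the threshold, 360 cells with Pax6 and 1 marker had 210 CPM of Pax6 and 156 CPM of Sfrp1. The marker in 298 of those 360 cells was Sfrp1. These markers were also counted, to unequal degrees, in cells of another type. In a cluster of excitatory neurons led by Slc30a3 and Neurod6, Sfrp1 was counted in 25.3% of 878 cells, Pax6 in 14.1%, Naaa in 4.56% and Veph1 in 0.342%. Their median was 21246.5 counts per cell, against 7839 in the Pax6 Sfrp1 cells. Whether the marker counts in these neurons came from free RNA was not tested.

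The control 2 cells stood apart. Their median was 18899.5 counts per cell, against 6362, 7407 and 7856 in control 1, cKO 1 and cKO 2. All 8 of them also met the rule used below for astrocytes, compared with 3 of 8, 11 of 41 and 7 of 21 cells in the other libraries. None met the rule once each cell was thinned to 5000 counts. Values that rest on control 2 are given with this in view.

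Pax6 Sfrp1 cells made up a larger share of both cKO libraries than of both controls, and with 2 libraries against 2 the exact permutation test of the share could not pass. Control 1 held 8 among 3206 cells (0.250%) and control 2 held 8 among 2395 (0.334%). The first cKO library held 41 among 2812 (1.46%) and the second 21 among 3081 (0.682%). The mean share was 0.292% ± 0.0597 (SD, n = 2) in controls and 1.07% ± 0.549 (SD, n = 2) in cKO, a ratio of 3.67. The exact two-sided permutation test over libraries gave p = 0.333, the smallest value this design allows. Within the shared preparation days the ratio was 5.84 for the first and 2.04 for the second. The cKO 1 library therefore carried much of the difference, which was 1.17 percentage points without cKO 2 and 0.390 points without cKO 1. The 95% exact binomial intervals, which cover counting error only, ran by library from 0.108 to 0.491%, 0.144 to 0.657%, 1.05 to 1.97% and 0.422 to 1.04%, so cKO 2 overlapped both controls. A larger share can mean more of these cells or fewer of the other sorted cells, and the sort itself sets the denominator. Per 100 astrocyte comparator cells, the set numbered 2.03, 3.25, 14.9 and 4.98 in the same order.

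Depth differed between libraries, with the deepest cells in control 2. After thinning to 5000 counts per cell, 7, 0, 35 and 9 cells remained, or 0.291, 0, 1.75 and 0.366% of the cells deep enough to be thinned. In control 2, the count of 0 allowed a share of up to 0.128% when taken as a limit of 3 cells, and of up to 0.157% by the exact two-sided 95% interval. Thinning left out 798, 47, 816 and 621 shallower cells. At 2000 counts per cell, 1, 0, 20 and 2 cells remained, most of them in cKO 1. With at least 3 of the 4 markers required, the numbers were 0, 0, 18 and 7 cells, and the controls allowed shares of up to 0.0936% and 0.125% as a limit of 3 cells, or 0.115% and 0.154% by the exact interval. All 25 of these stricter cells were in cKO libraries.

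**Figure D1:**
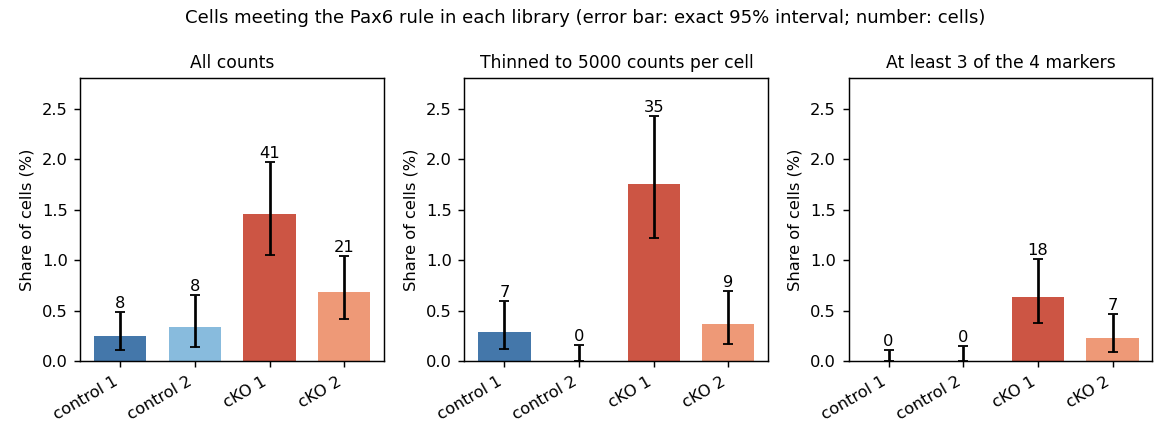
Share of cells (%) meeting the Pax6 rule in each of the 4 libraries, with all counts (left), with each cell thinned to 5000 counts (middle) and with at least 3 of the 4 markers (right). Bars are shares, error bars are exact 95% binomial intervals and the numbers are cells, and cKO 1 is the highest library in each panel, at 41, 35 and 18 cells.

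Clusters of all sorted cells were made without the rule genes, and they split the set by library. Of the 78 cells, 45 lay in cluster 10, a group of 284 cells whose leading genes were the histone genes Hist1h2ap, Hist1h2ao and Hist1h2an, the interneuron progenitor genes Dlx2, Sp9, Insm1 and Igfbpl1, the replication genes Cdca7 and Pclaf, and Sfrp1, which played no part in the clustering. By library those 45 were 1 of 8, 0 of 8, 34 of 41 and 10 of 21 cells. Cluster 10 as a whole held 10, 20, 120 and 134 cells of these libraries. The remaining cells lay mostly in clusters led by astrocyte genes. Cluster 7, led by Pla2g7, Slc7a10 and the immediate early gene Fos, held 11 of them, 7 from control 1. Cluster 15, led by Gfap, Cd74 and Serpinf1, held 10, of which 6 came from control 2. Cluster 8, led by Slc7a11, Gja1 and Fgfr3 beside a mitochondrial gene, held 6, of which 5 came from cKO 2. Thus 15 of the 16 control cells of the set lay outside the cluster that held most of the cKO cells. Cluster 10 takes no cell type name here, because its leading genes come from several lists.

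**Figure D2:**
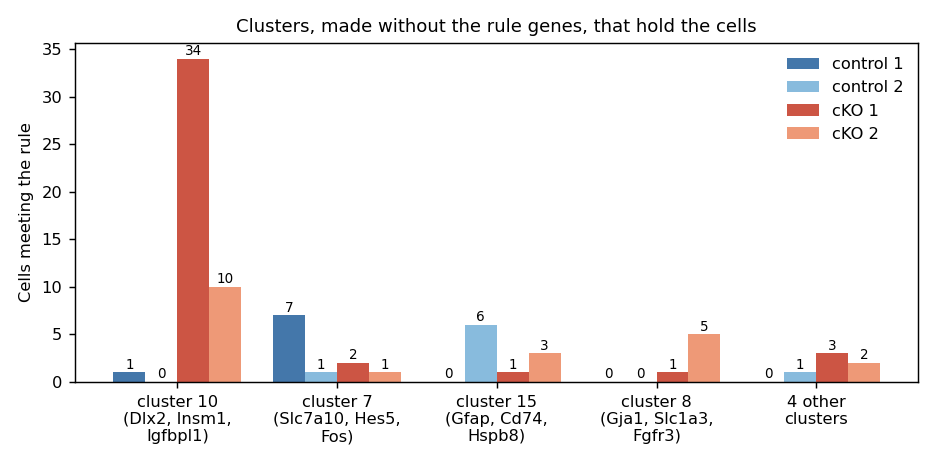
Number of Pax6 Sfrp1 cells (vertical axis) in each cluster, with 1 bar per library, for the 4 clusters holding most of them and for the 4 other clusters together. In cluster 10 the bars stand at 1, 0, 34 and 10 cells for control 1, control 2, cKO 1 and cKO 2.

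The Pax6 Sfrp1 cells carried a broad set of genes shared by radial glia and astrocytes. All 4 of Slc1a3, Fabp7, Sox2 and Sox9 were counted in 69 of 78 cells (88.5%), against 73.2% of the astrocyte comparator cells. Sox2, a stem cell factor, was counted in 74 cells (94.9%), compared with 40.9% of the excitatory neurons. Fabp7, a fatty acid binding protein, was counted in all 78 cells but also in 99.1% of the excitatory neurons, so it told nothing apart. The water channel Aqp4 was counted in 59 of the 78 cells and Gfap in 32, against 46.5% and 17.7% of the excitatory neurons. Nes, an intermediate filament of neural stem cells, was counted in 13 cells and Hopx in 14. Markers of the intermediate progenitors that make cortical neurons were nearly lacking, with Eomes in 2 cells, Neurog2 in 1 and Neurog1 in 0.

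A smaller group carried genes of subpallial progenitors. At least 2 of Dlx1, Dlx2, Dlx5, Sp8 and Sp9 were counted in 22 of the 78 cells (28.2%), against 3.96% of the comparator astrocytes and 5.13% of the deeper excitatory neurons. By library these 22 cells were 0, 0, 14 and 8. Of them, 17 lay in cluster 10 and 19 had a count of Aqp4. Igfbpl1, a secreted protein of newborn neurons, was counted in 20 cells, 13 in cKO 1 and 7 in cKO 2. Foxj1, the master gene of motile cilia and of ependymal fate, was counted in 16 cells (1, 1, 10 and 4), compared with 2.77% of the comparator astrocytes and 3.30% of the excitatory neurons. Of the 8 ependymal genes listed, 5 were at 0 in the set, Ccdc153, Tmem212, Ak7, Mia and Pltp. Rarres2 was counted in 14 cells (17.9%, against 4.86% of the comparator astrocytes and 1.139% of the excitatory neurons), at 0, 0, 42.5 and 31.9 CPM by library, and Dynlrb2 in 3 cells. Foxj1 and the subpallial genes coincided in 6 cells. Tfap2c, a cortical radial glia factor, was counted in 10 cells, 8 of them in cKO 1, and in 0.228% of the excitatory neurons.

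Genes of other cell types were also measured over the set. Choroid plexus markers were at 0 for all 5 genes. Of 6 microglia genes 4 were at 0, and the list summed to between 0 and 18.7 CPM per library. Of 6 endothelial genes 3 were at 0, with a sum of 0 to 15.96 CPM against 3.75 to 169 CPM in the comparator. The mural and meningeal list summed to 243, 12.7, 170.1 and 144 CPM, carried by Pdgfrb and Rgs5, while Vtn, Dcn and Lum were at 0. Oligodendrocyte lineage genes summed to 184 to 674 CPM, mostly Olig1 and Olig2, with Mag, Mog and Bmp4 at 0. Pan-neuronal genes summed to 1085 to 3165 CPM, below the comparator in each library. Dissociation and immediate early genes differed widely between libraries, at 6475 CPM in the control 1 cells against 532, 343 and 255 CPM in control 2, cKO 1 and cKO 2. Their part in the results was not tested, and the same order held in the comparator, at 3396, 446, 398 and 261 CPM.

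To ask what sets these cells apart from astrocytes, their summed counts were compared with those of astrocyte comparator cells of the same library. A comparator cell had counts for at least 3 of Aqp4, Aldh1l1, Agt, Gjb6 and Gja1, none for the 3 excluded genes, and did not belong to the set. There were 395, 246, 275 and 422 such cells by library. The test was edgeR's quasi-likelihood test with the library as a block, on genes outside both rules. Because both sets were picked by counts in the same cells, genes that vary with the rule genes from cell to cell can differ through that choice. Of 10407 genes tested, 88 were higher in the Pax6 Sfrp1 cells (0.846%) and 231 were lower (2.22%) at an adjusted p under 0.05, together 3.07%, and the unadjusted p was under 0.05 for 1315. Over all genes tested, 2.73% had every sum of the set above every comparator sum and 3.7% had the reverse. By DESeq2 96 genes passed, of which 95 were shared. The count rested on the cKO libraries, being 27 when cKO 1 was left out and 35 when cKO 2 was. It was 100 when control 1 was left out, 459 when control 2 was and 945 when both controls were.

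Ptx3, a secreted pattern recognition protein, was at 131, 38.0, 118 and 74.5 CPM in the set and at 17.1, 14.97, 14.7 and 9.23 CPM in the comparator. The set was above the comparator in 4 of 4 libraries without overlap, with a log2 fold of 2.52 ± 0.42 (SE, edgeR adjusted p = 1.22e-06). Abhd4, a lipase that acts on N-acyl phospholipids upstream of the amides cleaved by Naaa, rose by 1.57 ± 0.26 (SE, edgeR adjusted p = 1.22e-06), from 54.8 to 70.7 CPM in the comparator to 138 to 309.5 CPM in the set. Of the transcription factors among the 12 genes with the largest rise, the POU homeodomain factor Pou3f4 was 1.58 higher on the log2 scale and the zinc finger factor Zic1 1.502. The ammonium channel Rhcg was 1.72 higher, the oxygen sensor Egln3 1.58, the small GTPase Rnd3 1.57, Nt5dc2 1.56, the cell adhesion protein Pcdh8 1.36 and the ubiquitin ligase Hectd2 1.35. Their adjusted p lay between 0.000113 and 0.0309 by edgeR. Each of the 12 was higher in 4 of 4 libraries, which was part of the rule that named them. Igfbpl1, among the genes with the smallest p, is named after its values were seen. It was 3.56 ± 0.39 higher (SE), and as it was at 0 in the set of both controls its fitted fold depends on the model.

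Npy, a neuropeptide, was at 37.4, 57.0, 21.3 and 37.2 CPM in the set against 144, 152, 110.5 and 225 CPM in the comparator. It was lower in 4 of 4 libraries, with a log2 fold of -2.22 ± 0.33 (SE, edgeR adjusted p = 2.01e-08), and passed in each of the 12 alternatives tried. The neuronal genes Kcnq3, Vsnl1, Nefl, Syt7 and Gabbr2 lay at -2.43 to -2.05. H2-Ab1 and Cd74, genes of antigen presentation that here also marked the Gfap cluster, lay at -2.60 and -2.43. Each was counted in 4 cells of the set, and for both the library values of set and comparator overlapped. Mbp, a myelin protein, lay at -2.25, the scaffold Akap12 at -1.99 and the amino acid transporter Slc7a5 at -1.97. Counts of neuronal, myelin and globin genes in astrocytes can come from free RNA, and its part in these differences was not tested. Of the 53 genes named or listed that passed, 3 kept the call in each alternative in which they were tested, Npy and Olig1 among them.

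**Figure D3:**
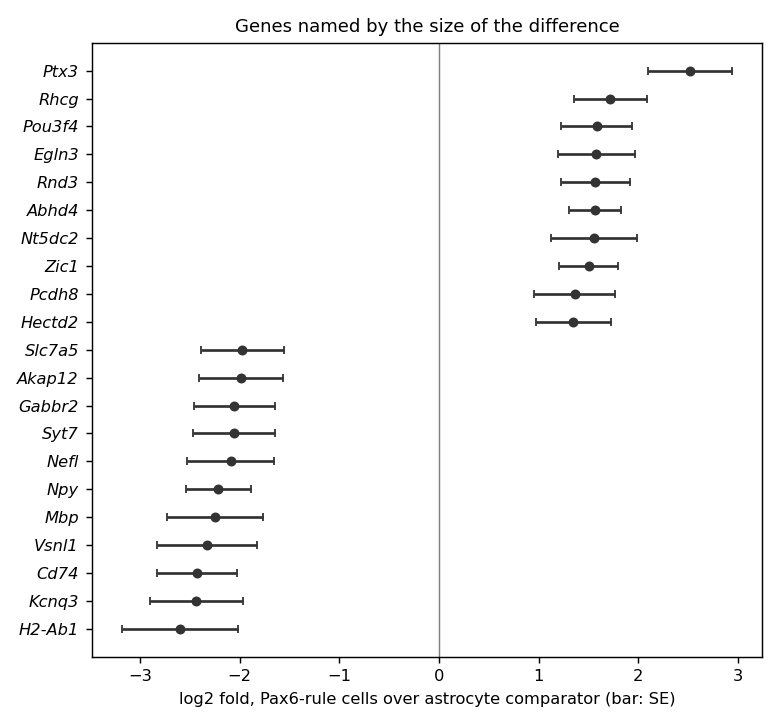
Log2 fold of the Pax6 Sfrp1 cells over astrocyte comparator cells (horizontal axis) for genes among those with the largest difference in either direction. Points are the edgeR estimate over 4 library pairs and bars its SE, derived from the F statistic of the quasi-likelihood test. Ptx3 stands highest at 2.52 and H2-Ab1 lowest at -2.60.

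The promoters of Ptx3 and Sp8 are shown because each holds a homeodomain core motif, in a set where the homeodomain genes Pou3f4, Dlx1 and Dlx2 were higher. The motif was chosen with these values known, and a match is a description of sequence only. The letters TAATTA, which read the same on both strands and lie at the core of sites bound by many homeodomain proteins, were searched in the 250 bases before each RefSeq start site (GRCm38.p6). They occurred in 4.84% of the 32851 promoters of the table. Among the 12 genes that rose most, 9 had a promoter in the table and 1 held the letters, Ptx3. Among the 12 subpallial genes listed, 10 had one and 1 held the letters, Sp8. The capitals mark the match, which begins 97 bases before the start of Ptx3 and 188 bases before that of Sp8. Both stretches are on the plus strand, Ptx3 at chr3:66219637-66219886 and Sp8 at chr12:118847309-118847558.
Ptx3: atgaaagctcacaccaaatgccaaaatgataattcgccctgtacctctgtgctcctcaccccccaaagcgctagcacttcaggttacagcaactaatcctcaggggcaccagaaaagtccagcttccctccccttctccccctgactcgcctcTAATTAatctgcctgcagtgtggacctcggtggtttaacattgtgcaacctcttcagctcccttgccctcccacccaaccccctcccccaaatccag
Sp8: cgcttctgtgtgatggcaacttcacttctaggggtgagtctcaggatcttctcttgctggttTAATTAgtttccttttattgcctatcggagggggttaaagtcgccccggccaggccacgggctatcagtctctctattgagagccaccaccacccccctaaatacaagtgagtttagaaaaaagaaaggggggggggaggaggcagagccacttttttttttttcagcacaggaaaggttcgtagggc

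Of the 18 radial glia and stem cell genes listed, 4 rose over the comparator, none fell and 14 did not pass, with a median log2 fold of 0.31 against -0.09 over all genes tested. Id4, an inhibitor of neuronal differentiation factors, was at 2489, 893, 1578 and 947 CPM in the set and 718, 508, 619 and 340.0 CPM in the comparator. No value of the set overlapped the comparator, and the log2 fold was 1.22 ± 0.22 (SE, edgeR adjusted p = 6.90e-06). Ddah1 was 0.78 higher, Sox9 0.71 and the stem cell nuclear receptor Nr2e1 0.92. Id4 passed in 11 of 12 alternatives, Ddah1 in 6, Sox9 in 4 and Nr2e1 in 2. Of 6 tested genes from a list of outer radial glia, Cryab fell and none rose.

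Of 12 subpallial genes listed, the 3 abundant enough to be tested rose, with a median of 1.95. A gene that passed the filter only through its level in the set had to differ, so this count is a description. Dlx2, which drives interneuron fate, was at 0, 25.3, 142 and 160 CPM in the set against 6.61, 7.49, 16.03 and 16.1 CPM in the comparator. The control 1 cells had none, and the other 3 libraries lay above their comparator, control 2 through 4 counts in 1 cell. The log2 fold was 2.67 ± 0.43 (SE, edgeR adjusted p = 6.89e-07), and for Dlx1 it was 1.95 ± 0.42 (SE, edgeR adjusted p = 0.000616). Meis2, a homeodomain cofactor found in pallial and subpallial cells, was 0.85 higher. Neither Dlx1 nor Dlx2 passed without cKO 1 or without cKO 2. Of 6 tested pallial genes 2 rose, Lhx2 by 0.75 and Neurod1 by 2.33. Lhx2 passed in 3 of 12 alternatives and Neurod1 in 5 of 10. Neurod1 lost the call when any 1 library was left out, and was counted in 2 of the set's cells in cluster 10 and 4 outside it. The cortical field gene Emx1 was counted in 7 of the 78 cells.

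Of 9 astrocyte genes tested outside the rules, 4 fell, none rose and 5 did not pass, with a median of -0.63 and 3 folds above 0. The 4 calls were lost by DESeq2 and when control 1, cKO 1 or cKO 2 was left out. Sparcl1, a secreted synapse protein, lay at -0.75, Gfap at -0.80, the calcium binding protein S100b at -1.42 and the neurotensin receptor Ntsr2 at -1.47. The glutamate transporter Slc1a2, at 1850.2 CPM over the whole set and 1854 CPM over the comparator, showed no such difference in level. Gfap was unevenly spread, at 356, 1488, 196 and 372 CPM in the set, and only the control 2 cells exceeded their comparator of 874 CPM. The ependymal gene Foxj1 was at 2.69, 5.99, 3.75 and 3.46 CPM in the comparator and at 37.4, 6.33, 47.2 and 21.3 CPM in the set. It was abundant enough to be tested only through its level in the set, so its log2 fold of 2.62 ± 0.70 (SE) is a description. The other ependymal gene tested, Rarres2, did not pass.

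**Figure D4:**
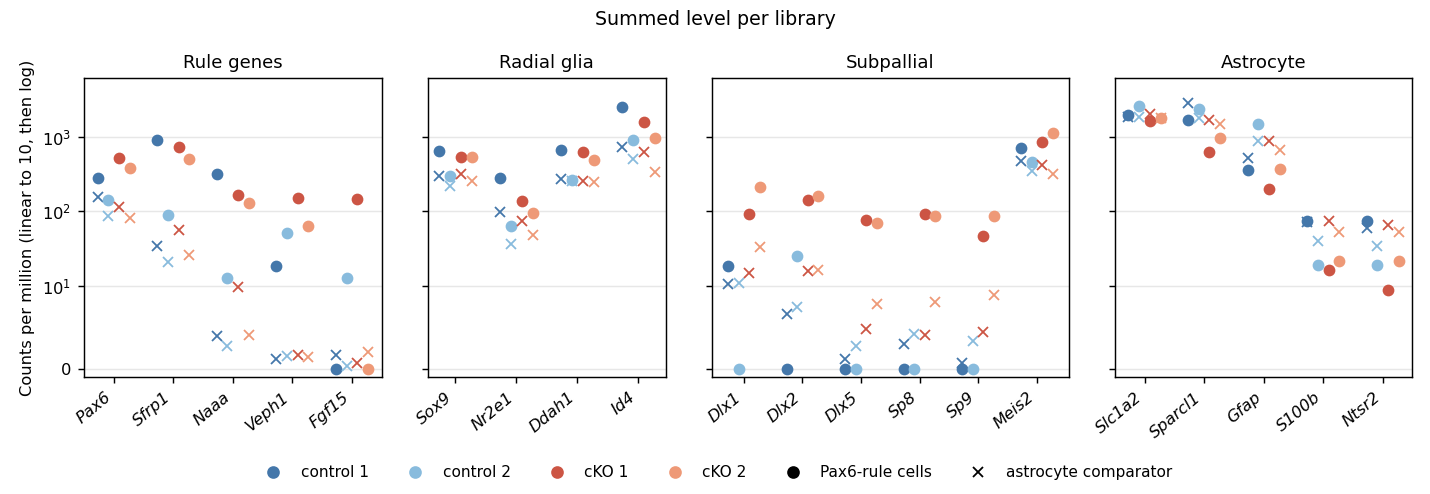
Level in CPM (linear below 10, logarithmic above) of rule genes, radial glia, subpallial and astrocyte genes, with 1 colour per library, circles for Pax6 Sfrp1 cells and crosses for astrocyte comparator cells. Dlx5, Sp8 and Sp9 stand at 0 in both control circles and between 47.2 and 92.1 in the cKO circles.

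Of 7 oligodendrocyte lineage genes tested 4 fell, among them Olig1, Gpr17 and Mbp, and none rose. Olig1 was at 281, 247, 66.1 and 95.8 CPM in the set against 581, 291, 408 and 411 CPM in the comparator, with a log2 fold of -1.63 ± 0.25 (SE, edgeR adjusted p = 3.91e-08). Of 8 pan-neuronal genes 3 fell, Snap25, Syt1 and Gap43, and neither the 6 excitatory nor the 5 inhibitory genes tested passed. The red blood cell genes Hbb-bs and Hba-a1 fell, with log2 folds of -4.19 and -4.06. Here 1 library decided the direction. The red blood cell list summed to 5184 CPM in the control 2 comparator and to at most 22.5 CPM in the other comparators, and without control 2 the folds were 0.13 and 0.65.

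Signalling genes differed little as groups. Of 12 Notch pathway genes tested 1 rose, the receptor Notch2, by 1.05 ± 0.30 (SE, edgeR adjusted p = 0.0201), with a list median of -0.01. Notch2 passed in 6 of 12 alternatives, and the control 2 set lay below its comparator, at 25.3 against 67.4 CPM. The Notch targets Hes5 and Hes1 did not pass. Hes5 was at 2040, 867, 782 and 532 CPM in the set against 1420, 633, 1023 and 625 CPM in the comparator. Both control sets thus lay above their comparator and both cKO sets below. Hes1 was at 449, 76.0, 123 and 101 CPM against 300, 93.1, 174 and 105 CPM. Of 10 FGF pathway genes 1 fell, the receptor Fgfr3, with a log2 fold of -1.05, and it passed in 8 of 12 alternatives. The FGF targets Etv4 and Dusp6 did not pass, at 45.0 and 47.4 CPM over the whole set against 108 and 90.4 CPM. Of 13 Wnt and BMP pathway genes 2 fell, Id1 with a log2 fold of -0.84 and Id3 with -1.10, both direct targets of BMP signalling. Neither Id1 nor Id3 passed without control 1, cKO 1 or cKO 2. The Wnt target Axin2 was at 29.2 CPM in the set and 50.4 in the comparator and did not pass. Of the 6 S phase and 6 G2 and M phase genes tested none passed. Cells with a count of Top2a or Mki67 were left out of both the set and the comparator. This comparison therefore cannot show whether cells of the set divide more than astrocytes. Foxp1, a relative of Foxp2, fell by 0.94 on the log2 scale and passed in 6 of 12 alternatives, and Foxp2 did not pass.

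The same rule with Top2a or Mki67 counted found 35 dividing counterparts, 3, 1, 12 and 19 by library. Their division genes differ by the rule's own choice, so the comparison serves to show what else differed. Of 3360 genes tested none was higher in the Pax6 Sfrp1 cells and 19 were lower (0.565%) by edgeR, with 256 at an unadjusted p under 0.05. Every sum of the set lay above every sum of the dividing cells for 1.55% of genes and below for 2.14%. By DESeq2 24 passed, 3 of them higher. The 12 with the largest fall were all genes of DNA replication, histones or mitosis. Hist1h2ap was at 37.4, 69.7, 128 and 138 CPM in the set and at 180.2, 786, 3021 and 2956 CPM in the dividing cells, a log2 fold of -4.11 ± 0.41 (SE, edgeR adjusted p = 0.000330). Pclaf, Rrm2, Tyms, Lig1, Birc5, Ccna2, Cdca3, Spc25 and Racgap1 lay at -4.69 to -3.26. Esco2 and Aurkb were at 0 in the set and each at 78.4 CPM in the dividing cells, at least 21.5-fold lower against a floor of 3 counts over the whole set. Leaving out cKO 1 reduced the count to 3, leaving out cKO 2 to 5, and leaving out either control raised it, to 62 and 82.

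Of 15 radial glia genes tested against the dividing cells none passed, the median log2 fold being 0.58 against 0.01 over all genes. Of 5 subpallial genes none passed, with a median of -1.16, and of 9 astrocyte genes none passed, with a median of 0.71. At least 2 of the Dlx and Sp genes were counted in 16 of the 35 dividing cells (45.7%), compared with 28.2% of the Pax6 Sfrp1 cells, at median depths of 13783 and 7839 counts. Cluster 10 held 19 of the 35.

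Within the set, the 45 cells of cluster 10 and the other 33 differed in level, given here without a test because the clusters were made from the same genes. Sfrp1 was at 814 CPM in cluster 10 and 259 CPM elsewhere, and Pax6 at 542 and 224 CPM. Fgf15 was at 137 CPM in cluster 10, in 6 cells, and at 5.40 CPM elsewhere, in 1 cell. Of 14 astrocyte genes listed, 12 were lower in cluster 10, among them Aqp4 at 206 against 1542 CPM and Gfap at 50.9 against 1037 CPM. Slc1a2 differed less, at 1647 against 2098 CPM, and S100b was higher in cluster 10, at 26.5 against 16.2 CPM. Id3 was at 139 against 2119 CPM and Id1 at 35.4 against 524 CPM. Igfbpl1 was at 349 against 89.1 CPM, Plagl1 at 177 against 35.1 and Notch2 at 246 against 59.4 CPM. Tfap2c was counted in 9 of 45 and 1 of 33 cells. The 239 other cells of cluster 10 had lower Sfrp1, at 164 CPM, lower Slc1a3, at 1923 against 4372 CPM in its Pax6 Sfrp1 cells, and more Dlx2, at 407 against 142 CPM. They also had more division genes, with Hist1h2ap at 2081 against 153 CPM. The rule leaves out cells with Top2a or Mki67, counted in 53.1% and 41.4% of those 239 cells, so lower division genes can follow from the choice of cells.

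The genotypes were then set side by side within the Pax6 Sfrp1 cells. Both control libraries held fewer than 10 such cells, so levels are given with no test. Among 8396 genes counted in at least 10% of the cells, both cKO sums lay above both control sums for 20.5% and below for 15.4%. For subpallial genes this was 7 above of 7, namely Gsx2, Dlx1, Dlx2, Dlx5, Sp8, Sp9 and Meis2. Sp8, a zinc finger factor of olfactory interneurons, was at 0, 0, 92.1 and 85.1 CPM by library. Sp9 was at 0, 0, 47.2 and 85.1 CPM and Dlx5 at 0, 0, 75.6 and 69.2 CPM. The control sums rest on 16 cells. Most cells of the set were cKO cells, so a gene could pass the 10% filter through them alone. For Gsx2, Dlx5, Sp8 and Sp9, at 0 in both control sets, the filter nearly fixed the order. The counts for this list and for the inhibitory list are therefore a description. For inhibitory neuron genes 4 of 4 lay above, Gad1, Gad2, Slc32a1 and Adarb2, and for radial glia genes 4 of 18 lay below, Fabp7, Nes, Hes5 and Ednrb, with none above. Fabp7 was at 15439, 10416, 6534 and 6640 CPM and Hes5, a Notch target, at 2040, 867, 782 and 532 CPM. For astrocyte genes 4 of 12 lay below and none above. Of 6 immediate early genes 4 lay below, Fos, Egr1, Ier2 and Dusp1, with Fos at 3275, 215, 123 and 74.5 CPM.

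To separate changes in these cells from changes shared with astrocytes, the fold over the comparator was tested for a difference between genotypes. Of 11202 genes tested by edgeR, 13 had a higher fold in cKO (0.116%) and 9 a lower one (0.0803%), together 0.196%. The unadjusted p was under 0.05 for 728 and the median difference was 0.19. By DESeq2 0 passed, with 313 at an unadjusted p under 0.05. The calls again rested on few libraries, being 0 when cKO 1 was left out, 3 when cKO 2 was, 198 when control 1 was and 209 when control 2 was. As 14 of the 16 control cells lay in clusters 7 and 15 and 44 of the 62 cKO cells in cluster 10, this difference and the cell make-up of the set cannot be told apart.

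Sox11, a factor of immature neurons and their progenitors, had a higher fold in cKO. It was at 131, 266, 884 and 1415 CPM in the Pax6 Sfrp1 cells, and at 282, 372, 318 and 367 CPM in the comparator. Both control sets lay below their comparator and both cKO sets above, and the log2 difference of the folds was 2.52 ± 0.44 (SE, edgeR adjusted p = 4.90e-05). Plagl1, an imprinted zinc finger factor, was at 0, 12.7, 144 and 160 CPM, with a comparator of 13.7 to 14.7 CPM. Cd24a, a surface protein of immature neurons, was at 112, 177, 420 and 660 CPM. Among the genes with a lower fold in cKO, Id3 was at 2433, 2963, 276 and 708 CPM in the set and at 3318, 2120, 2063 and 1527 CPM in the comparator. Id1 was at 936, 659, 70.9 and 138 CPM in the set, with the cKO sets below every comparator. Grm5, a glutamate receptor of immature astrocytes, was at 93.6, 374, 35.4 and 74.5 CPM in the set and between 281 and 302 CPM in the comparators.

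**Figure D5:**
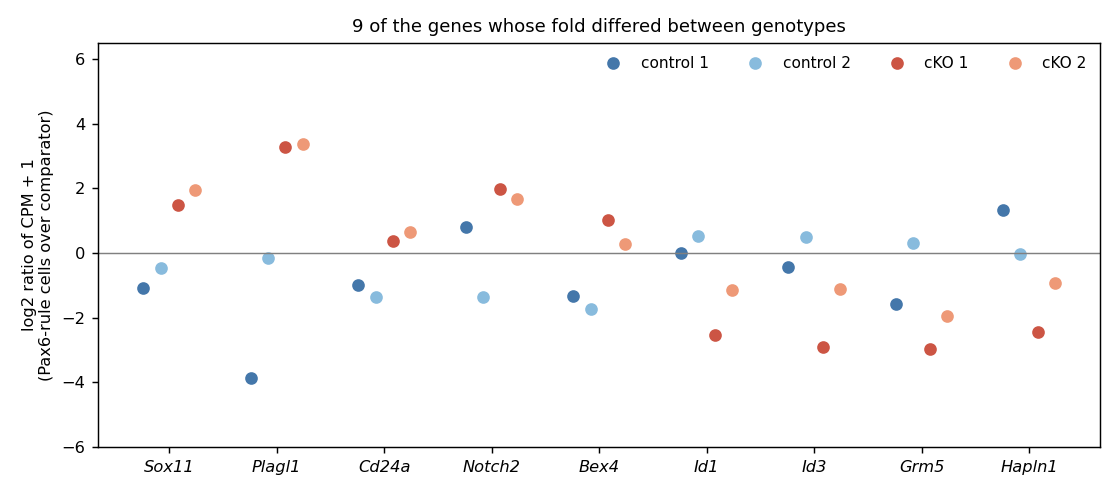
Log2 ratio of CPM + 1 in the Pax6 Sfrp1 cells over the comparator (vertical axis) in each library, for 9 of the genes whose fold differed between genotypes. For Sox11, Plagl1, Cd24a and Bex4 both cKO points lie above both control points, and for Id1, Id3, Grm5 and Hapln1 both lie below.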

How the data were processed

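Single-cell libraries were read from 2 control and 2 cKO samples. Per the submitters' processing notes, reads were handled with bcl2fastq 2.17.1.14, Cell Ranger 2.1.1, UMI-tools 0.5.4, STAR 2.5.2b, featureCounts of Subread 1.6.2 and SAMtools 1.6, with builds mm10 and GRCm38.p6. The deposited values are UMI counts per gene and cell, and the authors' cell table gives the mitochondrial fraction per cell. The members and gene lists were chosen with earlier results of these data known.

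Counts were summed per library and cell set, and tested with edgeR 4.0.16 in R 4.3.3 (quasi-likelihood, Benjamini-Hochberg adjustment, library as a block). The SE of a log2 fold was its absolute value divided by the square root of the edgeR F statistic. DESeq2 1.42.0 was an alternative. Clusters were made with scanpy 1.11.5 and leidenalg 0.10.2 from 2000 variable genes, 30 components and 20 neighbours, without the rule genes. Automatic doublet calls marked 0 to 5 cells per library and were not used, and an alternative left out the 267 cells with the highest scores, none of them in the set. The named genes were the 12 with the largest change in each direction that passed, moved alike in 4 of 4 libraries and had a mean of at least 50 CPM in the higher set, and the listed genes may be named too. Total counts were 27323298 to 36379194 per library. On simulated data the comparison with astrocytes recovered 14.4% of 2-fold and 63.2% of 4-fold changes over 10484 genes, that with dividing cells 31.9% and 91.7% over 3433 genes, and the genotype difference 8.16% of 4-fold and 52.0% of 16-fold changes over 11238 genes. The simulation gave all genes the same dispersion. It did not model the differing make-up of the set between libraries, so these recovery rates need not hold for the data. Same-numbered libraries share a batch. The results of a few genes are not reported here.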

Additional observations from a re-analysis of the deposited data

Results flagged for a closer look

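For 22 genes the log2 fold of the Pax6 Sfrp1 cells over the astrocyte comparator differed between cKO and control by edgeR's test of that difference. For 21 of these both batches moved alike, and none of the 21 kept the call in each alternative. DESeq2 called none. The remaining gene, Necab1, had a difference of -3.97 with the batches in opposite directions. Among them, the fold was higher in cKO for Sox11 by 2.52, Abracl by 3.47, Rgs5 by 3.61, Reln by 3.33, Cd24a by 1.90, Gadd45gip1 by 3.35, Plagl1 by 4.13, Notch2 by 2.46 and Bex4 by 2.47. Abracl, Reln and Plagl1 were at 0 in the set of control 1 and Rgs5 in that of control 2, so their fitted differences are no bounds. Over the alternatives these ran from 2.74 to 11.12 for Abracl, 0.44 to 11.98 for Rgs5, 0.83 to 9.63 for Reln and 3.601 to 10.98 for Plagl1. Reln was at 291 CPM in the cKO 1 set but at 37.2 CPM in the cKO 2 set, below its comparator of 245 CPM. It was at 13.3 CPM in the set's cells of cluster 10 and at 343 CPM in the others, where 5 cells had a count. Cluster 20, with Reln among its leading genes, held 1 cell of the set, from cKO 1. The part of that cell in the Reln difference was not tested. For Igfbpl1 the fitted difference was 10.09, which is no bound, since the gene was at 0 in the set of both controls. For the globin genes Hbb-bs and Hba-a1 the differences were 6.32 and 6.56, with 2090 and 1487 CPM in the control 2 comparator and at most 10.7 CPM in the other comparators.

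The fold was lower in cKO for Id1, with a difference of -1.97, Grm5 with -2.17, Pla2g3 with -2.15, Hecw1 with -2.54, Hspb8 with -3.54 (-10.18 to -1.42 over the alternatives, at 0 in the set of cKO 1), Id3 with -1.84, Nkd1 with -2.68 and Hapln1 with -2.13. Pla2g3 and Hspb8 are among the leading genes of cluster 15, which held 6 of the 8 control 2 cells of the set.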

How the results depend on the processing

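The cKO minus control difference in share kept its direction in each alternative, from 0.390 to 1.17 percentage points with 1 library left out, and was 0.394 and 0.914 with cells thinned to 2000 and 5000 counts. With the replicate block it was 0.778 (exact paired permutation p = 0.5). Against astrocytes, 319 genes passed. The count was 96 with DESeq2, 117 with cells thinned to 3000 counts and 27 to 459 with 1 library left out. With at least 3 markers it was 735, from the cKO libraries alone, as the controls held no such cell. With both controls left out, an alternative chosen after seeing the data, it was 945. Against dividing cells 19 passed, 83 with no filter on low counts, 8 after thinning and 3 to 82 with 1 library left out. In the cKO libraries alone 48 passed with at least 3 markers, and 474 passed without both controls. For the genotype difference 22 passed, 0 with DESeq2, 14 without the highest doublet scores, 11 after thinning and 0 to 209 with 1 library left out. It gave no value with at least 3 markers, as the controls held no such cell.

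Folds changed sign against astrocytes for Hbb-bs, to 0.62 with at least 3 markers, 0.13 without control 2 and 0.20 without both controls. For Hba-a1 they did so to 0.10 with DESeq2, 0.41 with at least 3 markers, 0.65 without control 2 or both controls and 0.64 without the cells that met the astrocyte rule. The Pla2g3 genotype difference became 1.27 without control 2. With 1 library left out these 3 values ran from -5.73 to 0.13, from -4.75 to 0.65 and from -3.70 to 1.27. The cause was not tested, beyond the globin counts of the control 2 comparator. Few cells limit all of these values, with 8 in each control.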
